A study of Arabidopsis with 8 samples.

Results

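Genes of nitrate transport and nitrate reduction were followed in the leaves of a pair of Arabidopsis ecotypes with and without salt. They were chosen by name, as 10 of the 25374 loci matched to a probe on the array, and comprised 4 transporters of the NRT1 family (NRT1.1, AT1G12110; NRT1.5, AT1G32450; NRT1.7, AT1G69870; NRT1.8, AT4G21680), 4 of the NRT2 family (NRT2.1, AT1G08090; NRT2.4, AT5G60770; NRT2.5, AT1G12940; NRT2.6, AT3G45060) and the nitrate reductases NIA1 (AT1G77760) and NIA2 (AT1G37130). The set was selected on results of these same arrays, and the salt change of NRT1.8 was already known when it was drawn up. The salt values of NRT1.8 are therefore given as a description with no test, and no count over the 10 genes is read as evidence about the family. Whether values of the other genes bore on the choice is not known, so their salt p-values may rest on values used in it. The arrays came from Landsberg erecta (Ler) and Shahdara (Sha), 2 natural accessions of Arabidopsis thaliana, each in a control and a salt group. Seedlings 10 days old were moved to medium with 100 mM NaCl or to the same medium without it, and RNA was taken from leaves pooled over many seedlings of a plate 4 days later. Each of the 4 groups held 2 biological replicates, giving 8 one-colour arrays.

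Nitrate enters plant cells through low-affinity and high-affinity carriers, for which the NRT1 and NRT2 families are the best known. Within the plant it is moved between organs through the xylem and the phloem, and several NRT1 proteins load or unload these vessels. In the cell, nitrate reductase converts nitrate to nitrite in the cytosol, and nitrite reductase converts nitrite to ammonium in the plastid, where glutamine synthetase and glutamate synthase assimilate it.

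The signal of each probe is given as log2 relative to the 75th percentile of its array, so 0 is the level of that percentile, and a difference of 1 is 2-fold. Levels were compared between groups of arrays for a probe, never between probes. A probe entered the test if 1 or more groups had it well above background on both of their arrays, which held for 9 of the 10 genes. It was called changed where the limma adjusted p was under 0.05 and the change exceeded 2-fold. On these arrays between 72.5% and 79.0% of spots were well above background, and no spot was saturated. In this leaf-labelled RNA, all 14 root markers and all 6 leaf markers were well above background on all 8 arrays. The summed signal of the root markers was 0.117% to 0.139% of the total in Ler control, 0.0791% to 0.0871% in Ler salt, 0.0975% to 0.101% in Sha control and 0.0595% to 0.0646% in Sha salt. With salt, 10 of the 14 were called lower in Ler and 13 of the 14 in Sha, and the part of this shift in the results below was not tested. Among them IRT1, the root iron carrier, fell by 5.58 in Ler and 5.52 in Sha. The leaf markers also moved, from between 0.681% and 0.847% to between 0.402% and 0.418% in Ler and from between 0.555% and 0.653% to between 0.453% and 0.506% in Sha. Of the 6, 4 were called lower in Ler and 1 in Sha, and their part was not tested either. Among them CA1, a carbonic anhydrase, fell by 4.25 in Ler and 2.80 in Sha. In pooled tissue, fewer cells of a type and less RNA per cell cannot be told apart.

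Salt changed the signal of these genes in both directions. By their brightest probes, NRT1.7 and NRT2.1 were called higher with salt in both ecotypes and NIA1 lower in both. NRT1.8 was brighter with salt by 7.71 in Ler and 8.14 in Sha on the log2 scale, which is a description. NRT2.6 was called higher and NRT2.4 lower in both ecotypes, but each entered the test only through groups in which it was high, and NRT2.4 was below background in both Ler groups. NRT1.5 was called lower in Ler and NRT1.1 in Sha, and in the other ecotype each was lower past the p threshold but by less than 2-fold. NIA2 was not called in either. Over all 21520 loci tested, salt was called to raise 13.1% and to lower 15.6% in Ler, and to raise 14.1% and to lower 17.9% in Sha. Nothing about the family is read from these calls.

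**Figure D1:**
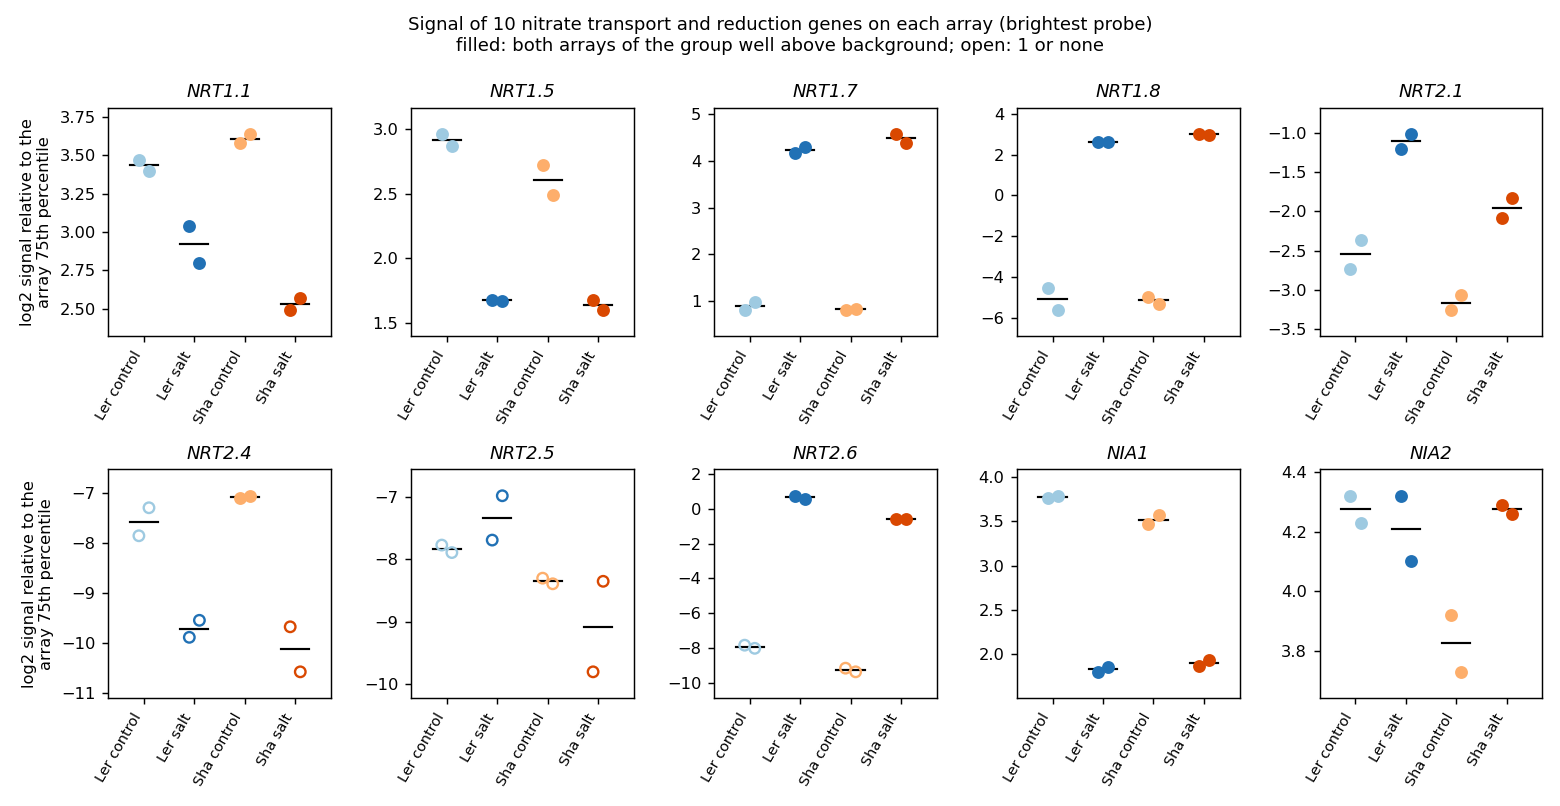
Log2 signal relative to the array's 75th percentile on each of the 8 arrays, for the brightest probe of each of the 10 genes, with 2 points and a line at the mean for each group; the vertical scale differs between panels. NRT1.7, NRT1.8 and NRT2.6 stand apart upwards with salt in both ecotypes, and NIA1 and NRT1.5 stand apart downwards.

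NRT1.1, the dual-affinity nitrate transporter and nitrate sensor, was lower with salt in both ecotypes. The brightest of its 2 probes stood at 3.47 and 3.40 on the Ler control arrays and at 3.04 and 2.80 on the Ler salt arrays. In Sha it stood at 3.58 and 3.64 without salt and at 2.49 and 2.57 with salt. The salt and control arrays did not overlap in either ecotype, and the Sha salt arrays were the lowest of the 8. The fall was 0.51 on the log2 scale in Ler (n = 2 against 2, limma adjusted p = 0.0049, SE 0.10), which is under 2-fold and was not called. In Sha NRT1.1 was down-regulated 2.12-fold (log2 change -1.08, limma adjusted p = 0.00017, SE 0.10). The response was larger in Sha, with a difference of the log2 salt changes of -0.57 (95% interval -0.91 to -0.22, limma adjusted p = 0.036), a difference smaller than 2-fold. The dimmer probe of NRT1.1 gave log2 salt changes of -0.56 in Ler and -1.11 in Sha, and for the difference of -0.55 the limma adjusted p was 0.05, on the threshold.

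NRT1.5, which loads nitrate into the root xylem, also fell. Its single probe read 2.96 and 2.87 in Ler control, 1.68 and 1.67 in Ler salt, 2.72 and 2.49 in Sha control, and 1.68 and 1.6 in Sha salt. All 4 salt arrays lay together below all 4 control arrays. NRT1.5 was down-regulated 2.36-fold in Ler (log2 change -1.24, limma adjusted p = 9.4e-05, SE 0.10). In Sha it was 1.95-fold lower (log2 change -0.96, limma adjusted p = 0.00024, SE 0.10), just inside the 2-fold limit. The Sha change was called at -1.08 without Sha control replicate 2 and at -1.0 without Sha salt replicate 1. The difference between the ecotypes' salt changes was 0.28 (95% interval -0.06 to 0.61, limma adjusted p = 0.19), so a different response of NRT1.5 in Ler and Sha was not shown.

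NRT1.7, which loads nitrate into the phloem of source leaves, rose strongly with salt. Its brightest probe read 0.82 and 0.98 in Ler control, and 4.17 and 4.31 in Ler salt. In Sha control it read 0.81 and 0.84, and in Sha salt 4.58 and 4.39. The 4 control arrays lay within a narrow range and the 4 salt arrays far above them. NRT1.7 was up-regulated 10.2-fold in Ler (log2 change 3.34, limma adjusted p = 3.2e-06, SE 0.10) and 12.6-fold in Sha (log2 change 3.66, limma adjusted p = 2e-06, SE 0.10). The second, dimmer probe, with levels of -2.26 and -2.27 in Ler control, 1.29 and 1.12 in Ler salt, -2.25 and -2.57 in Sha control, and 1.52 and 1.27 in Sha salt, gave log2 changes of 3.47 and 3.80, both called. Both probes of NRT1.7 thus moved by a like amount. The difference of the salt changes of the brighter probe was 0.32 (95% interval -0.04 to 0.67, limma adjusted p = 0.17), which leaves a larger response in Sha unresolved.

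NRT1.8, which takes nitrate back out of the xylem into neighbouring cells, went from dim to bright. The deposited signal of its single probe was 66.7 and 65.9 in Ler control, 20010 and 24950 in Ler salt, 117.3 and 103.1 in Sha control, and 18830 and 29030 in Sha salt. On the relative log2 scale these were -4.53 and -5.63, 2.62 and 2.64, -4.98 and -5.34, and 3.01 and 2.96. The Ler control arrays were 1.1 apart on that scale although their deposited signals were nearly equal, since each signal is scaled by the 75th percentile of its own array. The probe was well above background on all 8 arrays, and every salt array exceeded every control array. The mean log2 change of NRT1.8 was 7.71 in Ler (SE 0.34, 210-fold) and 8.14 in Sha (SE 0.34, 283-fold). Between the salt and control arrays of the same slide, the log2 differences were 7.15 and 8.27 in Ler and 7.99 and 8.30 in Sha. The difference between the ecotypes' salt changes of NRT1.8 was 0.43, with a 95% interval from -0.76 to 1.62. The SE and interval of NRT1.8 are given as description and are not read as tests.

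NRT2.1, the main high-affinity nitrate uptake carrier of the root, was dim on these arrays but well above background on all of them. Its levels were -2.73 and -2.36 in Ler control, -1.20 and -1.01 in Ler salt, -3.26 and -3.07 in Sha control, and -2.09 and -1.83 in Sha salt. Within each ecotype both salt arrays were higher than both control arrays. NRT2.1 was up-regulated 2.71-fold in Ler (log2 change 1.44, limma adjusted p = 0.00048, SE 0.16) and 2.31-fold in Sha (log2 change 1.21, limma adjusted p = 0.00094, SE 0.16). The difference of the responses was -0.23 (95% interval -0.80 to 0.34, limma adjusted p = 0.49).

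NRT2.6, an NRT2 family member whose transport role is less established, showed no signal well above background on any of the 4 control arrays and a clear one on all 4 salt arrays. Its deposited signal was 6.78 and 12.7 in Ler control, 5466 and 5983 in Ler salt, 6.52 and 6.36 in Sha control, and 1544 and 2468 in Sha salt. Relative log2 levels were -7.83 and -8.01, 0.75 and 0.58, -9.15 and -9.36, and -0.60 and -0.60. Because the control level is only a bound, the change is given as at least 208-fold in Ler and at least 197-fold in Sha. The probe entered the test only through the salt groups, where it was high, so no p-value is given for its rise. Each bound sets the mean of the salt arrays against the lowest signal among probes well above background on each control array, or the probe's own where that was higher. The difference of the fitted salt changes of NRT2.6 was 0.07. It rests on control signals below background, so no interval is given for it.

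NRT2.4, a high-affinity carrier linked to nitrogen starvation, was near background. It was well above background only on both Sha control arrays, at -7.09 and -7.05, against -9.67 and -10.57 on the Sha salt arrays. In Ler it read -7.85 and -7.29 without salt and -9.88 and -9.54 with salt, below background in both groups. NRT2.4 was therefore at least 1.82-fold lower with salt in Sha. The fit called this fall, but NRT2.4 entered the test only through the Sha control group, where it was high, so no p-value is given. No fold is given in Ler, where the fit also made the call. The call in Sha was lost with another background correction, where the log2 change was -0.26. NRT2.5, likewise a starvation-linked high-affinity carrier, was not tested. Its levels were -7.77 and -7.89 in Ler control, -7.69 and -6.98 in Ler salt, -8.30 and -8.39 in Sha control, and -9.80 and -8.35 in Sha salt. NRT2.5 was well above background on 1 Ler salt array and 1 Sha control array, so no change could be detected at this signal.

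**Figure D2:**
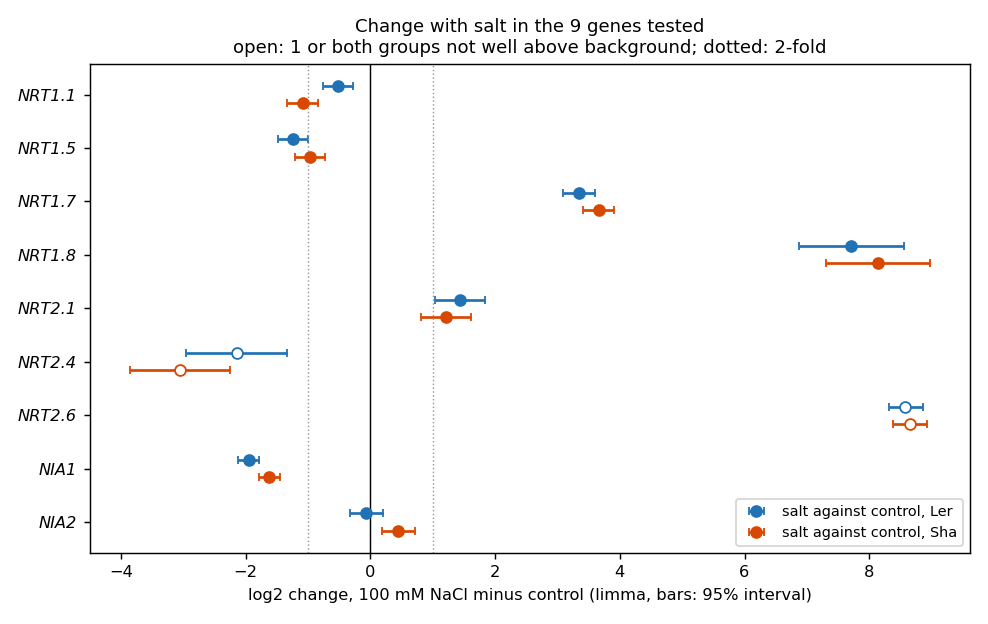
Log2 change with 100 mM NaCl in Ler (blue) and Sha (orange) for the brightest probe of the 9 genes tested, with 95% intervals from limma; open points have a group below background on both arrays, and dotted lines mark 2-fold. NRT1.8 at 7.71 and 8.14 and NRT2.6 at 8.58 and 8.66 lie far to the right, and the NRT2.6 values are fitted values and not bounds. The intervals of NRT1.8, NRT2.4 and NRT2.6 are drawn as description and are not read as tests.

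The nitrate reductases differed from each other in their response. NIA1 read 3.77 and 3.79 in Ler control, 1.8 and 1.86 in Ler salt, 3.47 and 3.57 in Sha control, and 1.87 and 1.93 in Sha salt. All 4 salt arrays lay far below all 4 control arrays, and the replicates were close. NIA1 was down-regulated 3.86-fold in Ler (log2 change -1.95, limma adjusted p = 5.1e-06, SE 0.07) and 3.08-fold in Sha (log2 change -1.62, limma adjusted p = 7.8e-06, SE 0.07). The difference of the responses was 0.33 (95% interval 0.08 to 0.57), with a limma adjusted p of 0.061, short of the threshold.

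NIA2, the isoform that supplies most nitrate reductase activity, was not called with salt by any of its 3 probes. The brightest read 4.32 and 4.23 in Ler control, 4.32 and 4.10 in Ler salt, 3.92 and 3.73 in Sha control, and 4.29 and 4.26 in Sha salt. The Sha control arrays were the lowest of the 8, and the other groups of arrays overlapped. The log2 salt change was -0.07 in Ler (limma adjusted p = 0.61, SE 0.11) and 0.45 in Sha (limma adjusted p = 0.011, SE 0.11), the second being under 2-fold. The second probe of NIA2 gave 0.01 in Ler and 0.32 in Sha, neither past the threshold. The dimmest probe read -0.93 and -1.33 in Ler control, -1.63 and -1.71 in Ler salt, -2.14 and -2.44 in Sha control, and -1.06 and -1.73 in Sha salt. For this probe the log2 salt changes were -0.54 in Ler and 0.89 in Sha, and their difference of 1.43 was called (95% interval 0.56 to 2.29, limma adjusted p = 0.035). The same difference was 0.52 (95% interval 0.14 to 0.89, limma adjusted p = 0.058) for the brightest probe and 0.31 (95% interval -0.20 to 0.81, limma adjusted p = 0.31) for the second. The 3 probes of NIA2 thus agreed in sign but not in size or call for the ecotype difference.

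**Figure D3:**
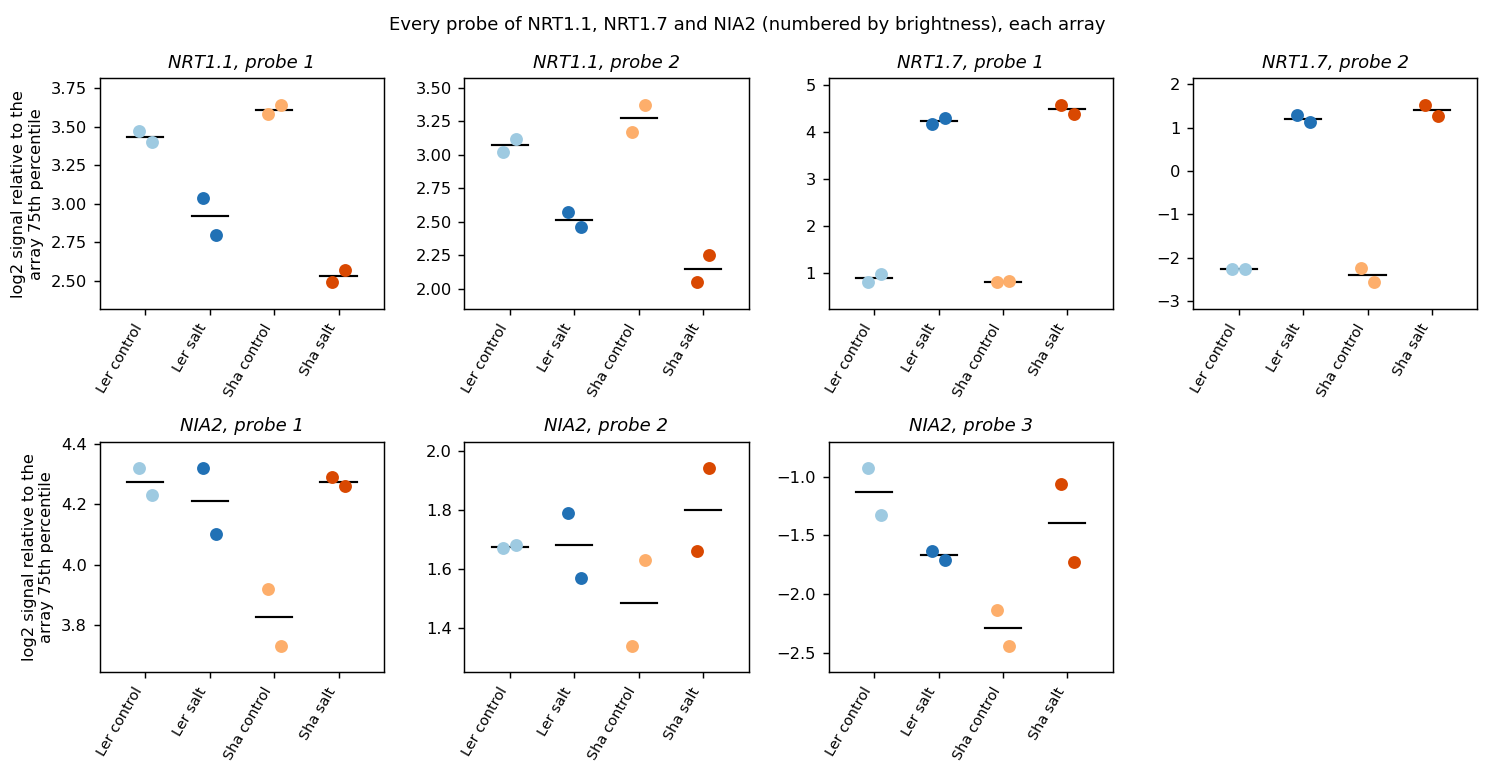
Log2 signal relative to the array's 75th percentile on each array for every probe of the 3 genes with several probes, numbered by brightness, with a line at each group mean; the vertical scale differs between panels. The probes of NRT1.1 and of NRT1.7 move alike, and the dimmest NIA2 probe has the lowest values in Sha control, at -2.14 and -2.44.

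Between the ecotypes, NRT2.6, by its brightest probe, was the 1 gene of 9 tested that was called lower in Sha, both without and with salt, and 0 of 9 were called higher. Over all loci, 5.09% were called higher and 6.87% lower in Sha without salt, and 5.86% higher and 8.31% lower with salt. With salt, NRT2.6 was 2.4-fold lower in Sha than in Ler (log2 difference -1.26, limma adjusted p = 0.00037, SE 0.11), and the arrays of the ecotypes did not overlap. Without salt, both ecotypes were below background for NRT2.6, so no fold is given for that call. NRT2.1 was also lower in Sha, by 0.62 on the log2 scale without salt (limma adjusted p = 0.026) and by 0.86 with salt (limma adjusted p = 0.0075), both under 2-fold. Without salt, the brightest probe of NIA2 was lower in Sha by 0.45 (limma adjusted p = 0.019), NRT1.5 by 0.31 (limma adjusted p = 0.044) and NIA1 by 0.26 (limma adjusted p = 0.03), all under 2-fold. The dimmest NIA2 probe, with a log2 difference of -1.16 (limma adjusted p = 0.014), was called. With salt, NRT1.1 was lower in Sha by 0.39 (limma adjusted p = 0.023). For the difference of the salt changes, 0 of 9 were called by the brightest probe, beside 4.02% of all loci called higher and 4.74% called lower in Sha. At an unadjusted limma p under 0.05 it differed for 3 of the 9, which were NRT1.1, NIA1 and NIA2, beside 40.9% of all loci. Whether Sha and Ler differ in sequence under these probes was not tested.

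Among other nitrate transporters and their partners, lower calls with salt were made in both ecotypes and higher calls in Sha only. Of 8 tested further NRT1 genes, 4 were called lower and 0 higher in each ecotype, with a median log2 change of -1.04 in Ler and -0.83 in Sha. Over all loci, 15.6% were called lower and 13.1% higher in Ler, and 17.9% lower and 14.1% higher in Sha. The counts of this and the following lists stand beside those shares, and nothing about a list is read from them. The largest fall among the further NRT1 genes was that of NRT1.11, a phloem transporter of nitrate, at -2.61 in Ler and -2.48 in Sha. Among the remaining NRT2 genes and their partners, 3 were tested. NRT3.1, the partner protein that NRT2.1 needs to act, was at 1.27 and 1.26 in Ler control, 1.85 and 1.97 in Ler salt, 0.47 and 0.72 in Sha control, and 1.92 and 1.92 in Sha salt. It was higher on the salt arrays of both ecotypes, as NRT2.1 was, by 1.33 in Sha (limma adjusted p = 7.3e-05, called) and by 0.64 in Ler (limma adjusted p = 0.002, under 2-fold). NRT2.7, a vacuolar carrier known for nitrate in seeds, rose by 1.6 in Sha and stood 0.86 higher, under 2-fold, in Ler. NRT2.3 fell by 1.69 in Ler and 1.77 in Sha, calls that were lost with another background correction. NRT2.2, the close neighbour of NRT2.1, was not tested and read above background on 1 Ler salt and 1 Sha salt array.

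In the vacuolar and plasma membrane anion channels, 2 of 7 were called higher and 2 lower in Ler, and 2 higher and 3 lower in Sha. The lower calls in both ecotypes include SLAH4, which was below background in both Ler groups and in Sha salt. CLCA, the exchanger that stores nitrate in the vacuole, was lower by 0.93 in Ler, under 2-fold, and by 1.57 in Sha, where it was called. SLAH3, a nitrate-conducting channel of guard cells, was up-regulated by 2.13 in Ler and 2.57 in Sha. SLAH1 was below background on the salt arrays, and at least 14.6-fold lower in Ler and at least 1.62-fold lower in Sha, the second bound being under 2-fold. The fit called both falls, but SLAH1 entered the test only through the control groups, where it was high, so no p-value is given. Another background correction removed both calls.

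Downstream of the nitrate reductases, 1 of 12 genes of nitrite reduction and its cofactors was called higher and 5 lower in Ler, and 1 higher and 3 lower in Sha. NIR1, the nitrite reductase that takes the product of NIA1 and NIA2, read 4.23 and 4.10 in Ler control, 3.16 and 2.74 in Ler salt, 4.54 and 4.51 in Sha control, and 2.79 and 2.96 in Sha salt. It fell by 1.22 in Ler (limma adjusted p = 7e-04, SE 0.15) and by 1.65 in Sha (limma adjusted p = 0.00016, SE 0.15), as NIA1 did. CNX2, an enzyme of the molybdenum cofactor that nitrate reductase needs, rose by 1.12 in Ler and 1.16 in Sha, and G6PD3, a plastid source of reductant, fell by 1.31 and 1.71.

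Of 15 genes of ammonium assimilation, 2 were called higher and 6 lower in Ler, and 2 higher and 5 lower in Sha. Cytosolic glutamine synthetase genes moved apart, since GLN1;3 rose by 1.79 in Ler and 1.43 in Sha, and GLN1;4 fell by 2.5 and 1.55. GDH3, a glutamate dehydrogenase, fell by 2.16 and 1.82, which was not called with another background correction. Of 5 ammonium transporters, 1 was called higher and 3 lower in Ler, and 0 higher and 3 lower in Sha. Among them AMT1;3, a root uptake carrier, fell by 2.95 in Ler and 3.07 in Sha, and AMT2 rose by 1.16 in Ler and stood 0.91 higher in Sha, under 2-fold. The lower calls in both ecotypes include AMT1;5, which was below background on the salt arrays. It was at least 4.63-fold lower in Ler and at least 3.03-fold lower in Sha. AMT1;5 entered the test only through the control groups, where it was high, so no p-value is given.

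**Figure D4:**
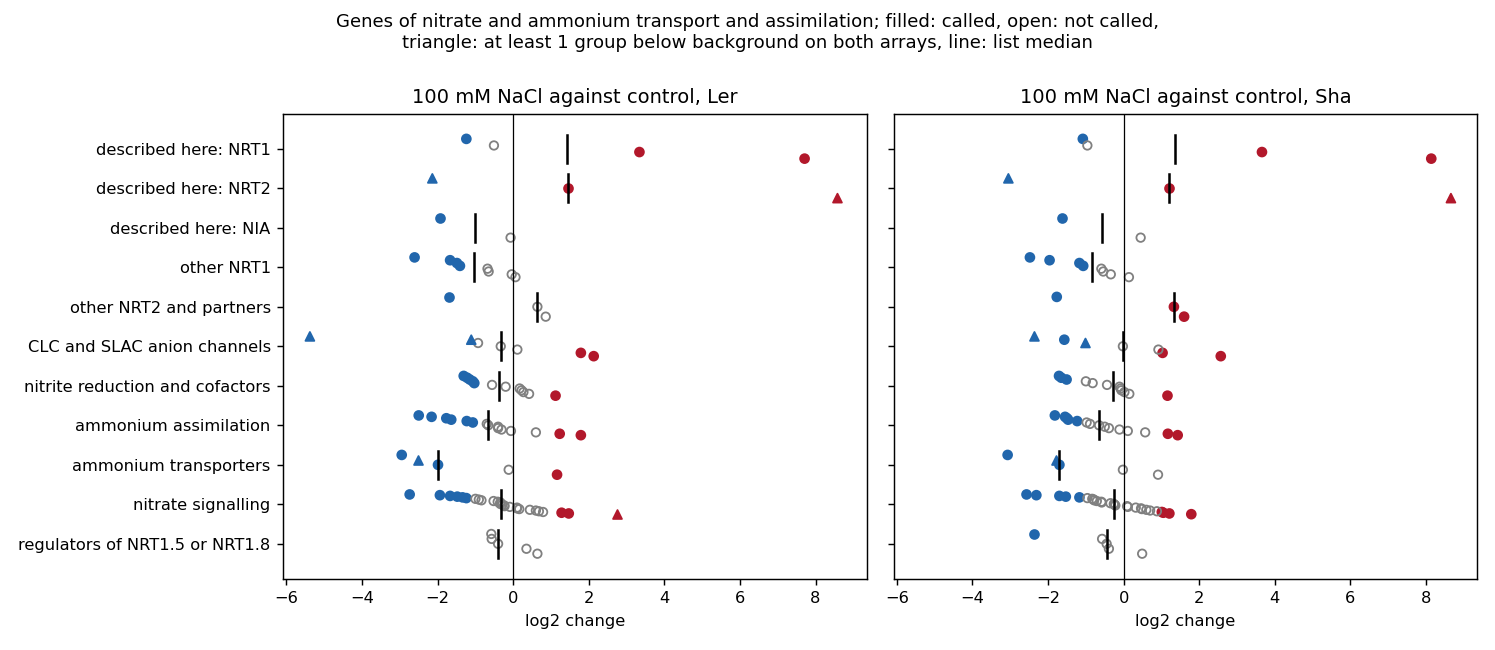
Log2 salt change in Ler and in Sha of each tested gene of nitrate and ammonium transport, assimilation and signalling, by list, with filled points called, open points not called, triangles for genes with a group below background on both arrays, and a line at the list median. The further NRT1 genes have medians of -1.04 and -0.83 and none called higher, and the ammonium transporters medians of -1.99 and -1.70.

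Of 28 genes of nitrate signalling, 3 were called higher and 6 lower in Ler, and 4 higher and 5 lower in Sha, with medians of -0.32 and -0.25. NLP8, a nitrate-responsive regulator of germination, rose by 1.47 in Ler and 1.79 in Sha, and HRS1, a repressor linking nitrate and phosphate, fell by 2.74 and 2.57. ANR1, a regulator of lateral root growth, was below background in Ler control and at least 2.71-fold higher with salt there. The fit called this rise, a call lost with another background correction. Of 5 regulators reported to act on NRT1.5 or NRT1.8, 0 were called in Ler and 1 in Sha, where ORA59, an ethylene response factor, fell by 2.37, against an uncalled log2 change of -0.58 in Ler.

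Genes whose profile over the 8 arrays was most like that of a member were found by the root mean square difference of profiles centred on their means. For NRT1.8 these were LEA4-5, a late embryogenesis abundant protein gene, at 0.32, AT3G02480 at 0.37, and HAI2, a clade A protein phosphatase, at 0.38. The nearest to NRT1.7 was DREB1A, a cold-response transcription factor, at 0.11. The nearest to NRT2.6 was AT1G11925 at 0.29, to NRT2.1 AT1G48325 at 0.12 and to NRT2.4 RXF26 at 0.20. For NRT1.1, NRT1.5, NIA1 and NIA2 the nearest were AT1G30600 at 0.05, HCF101 at 0.06, AT5G19230 at 0.06 and AT1G10320 at 0.06. These distances describe 8 arrays that share the same salt contrast.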

How the data were processed

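RNA from 8 leaf samples was hybridised to one-colour Agilent arrays. The authors scanned them and extracted the signal from the images with Feature Extraction 10.7.1.1. The deposited intensity is the processed signal of that software, already corrected for background. Of 43603 probes other than controls, 43572 were kept, and 34263 were matched through RefSeq accessions to 25374 loci. Intensity was put on the log2 scale and the 75th percentile of each array subtracted. A probe entered the test if 1 or more groups had it well above background on both of their arrays, and limma 3.58.1 (R 4.3.3) was then run on those 34659 probes with Benjamini-Hochberg adjustment over all of them. The median SD of replicates was 0.082 to 0.094. The genes, and the lists around them, were chosen with earlier results of these data known. Genes are given by their brightest probe; of each list, the called gene with the largest rise and the largest fall in each salt comparison is named, with NIR1, NRT2.2, NRT3.1 and CLCA, and, per gene, the locus of nearest profile (3 for NRT1.8). Alternatives covered scaling, background correction, filter, blocks and leaving out each array. With 2 arrays a group, their number limits the precision. The p-values rest on a spread between replicates that is pooled over the 4 groups and moderated across probes. Each slide held the control and salt arrays of 1 ecotype and replicate number, and all first replicates were scanned on 1 day. The second replicates of Ler and of Sha were scanned on different days, and ecotype cannot be told apart from slide.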

Additional observations from a re-analysis of the deposited data

Results flagged for a closer look

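The salt responses of 5 probes differed between the ecotypes by the limma test of the difference itself. That test called 8.76% of all 21520 loci, each by its brightest tested probe. The 5 probes were drawn otherwise, so their number is not compared with that share. The probes covered were all those of the genes described and the brightest of each further gene named. Most further genes were picked by the size of their salt change in these data, and listed genes not named were left out of this count. The dimmest probe of NIA2 responded by 1.43 more on the log2 scale in Sha than in Ler, while the brighter NIA2 probes gave 0.52 and 0.31, neither of which was called. The difference was 3.03 for SLAH1, which was below background on all salt arrays, and -1.86 for ANR1, which was below background in Ler control. It was -1.79 for ORA59, which fell more in Sha, and 1.44 for CA1, the carbonic anhydrase among the leaf markers, which fell more in Ler. The call was lost for ORA59 with another background correction, at -1.36, and for CA1 with quantile normalization, at 0.89. For SLAH1 and ANR1 the call was lost with that background correction and also with no filter on dim probes. The ANR1 call was lost with quantile normalization as well. The dimmest NIA2 probe was itself an alternative to the brightest, and its call was not followed through the other alternatives.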

How the results depend on the processing

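The fit called 7 of the 9 genes tested in each salt comparison, beside 28.6% of all loci in Ler and 32.0% in Sha. This count includes NRT1.8, NRT2.4 and NRT2.6, and nothing about the family is read from it. The count was 6 in each with normexp and 5 in each with the filter for all 8 arrays. With the replicate block it was 7 and 7, with 1, 1 and 0 for the ecotype comparisons and the difference of responses, and the block changed no call. Deviations of the control and salt arrays that share a slide and a number correlated at 0.208 in Ler and 0.47 in Sha. Between ecotypes, same-numbered arrays share no slide, and their correlations were 0.058 to 0.261, so the number was not used to pair samples across all groups. Leaving out 1 array gave 7 to 7 members called in Ler and 7 to 8 in Sha. The call of NRT2.6 between the ecotypes was lost, leaving 0 members, without salt under normexp, quantile normalization and the filter for all 8 arrays, and with salt under that filter, which drops the gene.

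The values that changed sign were as follows. With normexp, NRT2.4 went to 0.41 for salt in Ler and -0.44 for Sha against Ler without salt, NRT1.5 to 0.09 for Sha against Ler with salt, and NRT2.6 to -0.40 for the difference of responses. Quantile normalization gave 0.24 for NIA2 with salt in Ler, 0.14 for NRT1.8 between the ecotypes without salt and -0.28 for the NRT2.6 difference. Scan day as a block gave 0.04 for NRT1.7 without salt, 0.02 for NRT1.5 with salt and 0.03 for NRT2.4 with salt between the ecotypes, and median scaling 0.02 for NRT1.5. The second NIA2 probe gave 0.01 in Ler. Over the fits that each left out 1 array, NIA2 with salt in Ler ranged from -0.18 to 0.04 (main fit -0.07). For Sha against Ler without salt, NRT1.7 ranged from -0.15 to 0.01 (main fit -0.07). NRT1.8 there ranged from -0.63 to 0.47 (main fit -0.08). For Sha against Ler with salt, NRT1.5 ranged from -0.07 to 0.01 (main fit -0.03). In that comparison NRT2.4 ranged from -0.86 to 0.04 (main fit -0.41) and NIA2 from -0.04 to 0.18 (main fit 0.07). For the difference of responses, NRT1.8 ranged from -0.12 to 0.98 (main fit 0.43) and NRT2.6 from -0.04 to 0.18 (main fit 0.07). The cause was not tested.

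Normexp moved the median of all loci from -0.08 to 0.07 for salt in Ler and from -0.02 to -0.16 for Sha against Ler with salt. With it, calls of SLAH1, GDH3, NRT2.3 and ANR1 were lost, and the SLAH1 and ANR1 differences were also lost without most single arrays. The ORA59 difference was not called with normexp (-1.36), nor the CA1 difference with quantile normalization (0.89). Signals of NRT2.4, NRT2.5 and NRT2.6 near background limit what can be said of their low groups.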
